A study of Mus musculus with 8 samples.

Results

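Expression was compared across all genes between the 2 libraries labelled ZMYND11 KO at 0 h and the 2 labelled WT at 0 h, which are 4 of the 8 libraries of an RNA sequencing series. All 8 came from NIH3T3, an immortalised line of mouse fibroblasts whose labels give the strain as Swiss albino, grown in DMEM with donor bovine serum. By label the WT 0 h cells are wild type, the KO 0 h cells carry a CRISPR knockout of Zmynd11, and neither group received an agent. The other 4 libraries are labelled 2 h, and by label their WT and KO cells had been given recombinant mouse interferon-beta at 100 units/ml. The labels do not name a clone, a guide or the edited position, and they do not say whether both replicates are separate cultures. The p-values therefore rest on the spread between samples alone, and that spread may be technical. The extraction protocol in the labels speaks of embryonic fibroblasts (MEFs) where the source field names NIH3T3. Names follow the labels, so higher and lower mean higher and lower under the KO label.

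Type I interferon binds the receptor chains Ifnar1 and Ifnar2 and activates the kinases Jak1 and Tyk2, which phosphorylate transcription factors of the Stat family. Stat2 and Irf9 are part of a complex that binds the interferon-stimulated response element (ISRE) in the promoters of antiviral genes, while interferon-gamma acts through another element, GAS. The induced genes encode sensors of foreign RNA and DNA, proteins that block viral translation and assembly, GTPases that attack the vacuoles of intracellular pathogens, parts of the antigen presentation machinery, and inhibitors that end the signal. Zmynd11 encodes a chromatin protein that reads trimethylated lysine 36 on histone H3.3.

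Before the comparison, 2 features of these libraries bear on each result. First, the targeted gene was not called between the groups. Zmynd11 stood at 123 and 120.4 CPM (reads scaled to a common library size, with TMM factors) in the libraries labelled WT 0 h replicates 1 and 2 and at 137 and 131 CPM in KO 0 h replicates 1 and 2 (log2 fold change 0.15 with SE 0.09, edgeR adjusted p = 0.364). The groups do not overlap, with KO slightly higher, and the difference did not pass the test. Of all tested genes, 25.2% had groups that do not overlap with KO higher. The 4 libraries labelled 2 h held 3.18 to 4.69 CPM, so the reads of this gene followed the time labels and not the genotype labels. The genotype labels may therefore not give the genotype of these libraries, and the time labels may not give the treatment. Each KO minus WT value below is a difference between labels, not shown to be one between genotypes. With the labels in doubt, genotype and exposure to interferon cannot be told apart as its source. Which labels are right was not tested. Reads were counted per gene, so an allele that is transcribed without giving protein cannot be told apart from an intact one. Second, the library labelled KO 0 h replicate 2 stands apart. Reads were found for 17498 genes there and for 14847 to 15460 in the other 3, and 1992 genes had reads in it alone among the 4, against 187 to 341 for each of the others. These 1992 genes held 4731 reads, 0.0303% of the library, at a median of 2 and a maximum of 25 reads per gene, and 28 of them passed the filter on low counts. Genes with at least 3 reads in that library alone numbered 641, against 23 to 45. A larger share of its reads lay outside genes (17.3% against 12.8 to 13.3%). Markers of macrophages summed to 78.8 CPM there against 44.2 to 53.5 CPM in the other 3, and those of lymphocytes to 7.62 against 2.64 to 3.81 CPM. Ptprc, which is in both lists, was the only lymphocyte marker past the filter on low counts. It alone held 6.55 of the 7.62 CPM, against 2.39 to 3.64 CPM in the others. Cd3e was at 0 reads in all 4 libraries, as were Hbb-b1 and Hba-a1 of red cells, and each of the 8 macrophage markers had reads. Markers of endothelium summed to 5.08 against 2.41 to 3.22 CPM and those of neurons to 3.74 against 1.18 to 2.37 CPM. Markers of epithelium (5.21 against 3.32 to 4.91), adipocytes (0.802 against 0.331 to 0.684) and hepatocytes (0.267 against 0 to 0.0552) were also highest there, while those of skeletal muscle were lowest (3.07 against 3.26 to 3.69) and those of red cells lay within the range (0.735 against 0.688 to 1.10 CPM). The part of these reads in the results below was not tested, except that the counts of calls are also given without this library. In such bulk RNA, fewer cells of a type and less RNA per cell cannot be told apart. Markers of fibroblasts summed to 41205 to 46010 CPM in the 4 libraries, and to 18574 to 20519 CPM in the 4 labelled 2 h. Gene reads ranged from 15639529 in KO 0 h replicate 2 to 21299120 in WT 0 h replicate 1, so a gene listed at 0 may hold up to 3 reads, or 0.147 to 0.2005 CPM, for counting error only.

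Interferon-induced genes were higher in the libraries labelled KO 0 h, and the largest differences were theirs. Of 12807 genes tested, edgeR called 339 higher (2.65%) and 163 lower (1.27%), with changes of 2-fold or more in 122 (0.953%) and in 1 (0.00781%). The members of 19 lists of interferon genes made up 131 of the 339 higher calls, with 223 members tested, and 2 of the lower calls, Ticam1 and Pias4. Their weight grew with the fold, from 33 of 217 calls under 2-fold to 29 of 41 between 2- and 4-fold, 39 of 46 between 4- and 16-fold and 30 of 35 at 16-fold or more. Outside these lists, 208 genes were called higher, of which 24 by at least 2-fold. This split depends on how the lists were made, and a gene outside them need not be unrelated to interferon. The lists were chosen with earlier results of these data known. The share of their members among the larger changes was therefore partly set in advance. The 24 include Cxcl10 and Tnfsf10, and also Gm14446, AI607873, Trim34b and Gm4841, which lie next to list members in the genome. Under the WT label the higher genes summed to 26107 and 26343 CPM, and under the KO label to 38151 and 40512 CPM, while the lower genes summed to 14452 and 14111 CPM against 11193 and 10945 CPM. Each of the 502 called genes had groups that do not overlap, as did 25.2% of all tested genes toward higher and 26.3% toward lower. Without KO 0 h replicate 2, edgeR called 257 genes higher and 89 lower, of which 206 and 61 were among the calls with all libraries, with 107 and 4 past 2-fold. The plot of fold change against level shows the lists' members rising out of a narrow band of small differences.

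**Figure D1:**
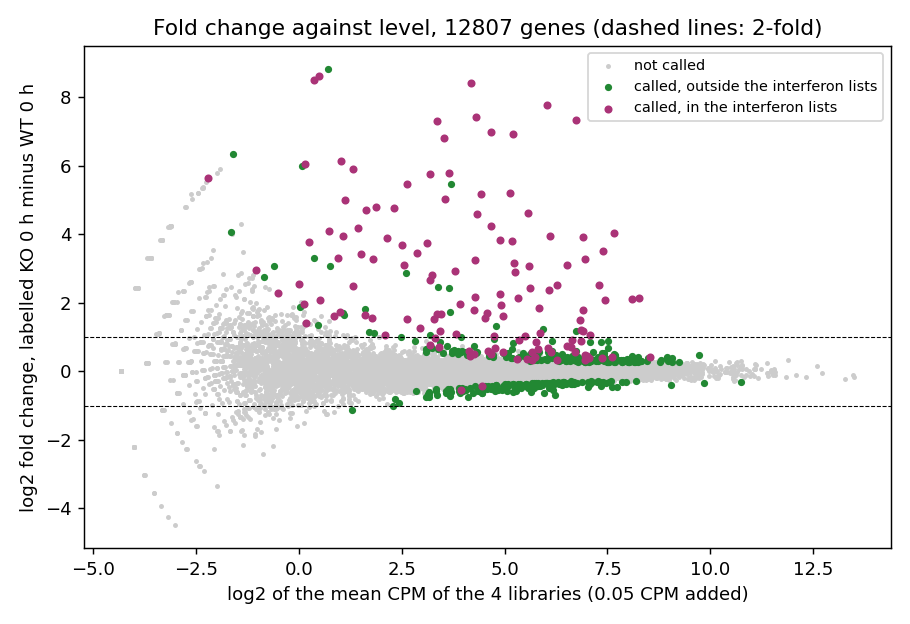
Each point is 1 of 12807 tested genes, with the log2 of its mean CPM over the 4 libraries labelled 0 h on the x axis and the fitted log2 fold change, KO 0 h minus WT 0 h, on the y axis. Called genes of the 19 interferon lists are purple, other called genes green, and genes that were not called grey. The 122 genes called at least 2-fold higher lie above the upper dashed line, and 1 called gene lies below the lower one.

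The small differences varied with the base composition of the transcript. When the 12694 tested genes with a transcript in the annotation were split into 5 equal groups by GC content, the median log2 fold change ran 0.17, 0.08, -0.01, -0.09 and -0.17 from the lowest to the highest group. Higher calls numbered 163, 77, 36, 32 and 29 in the same order, and lower calls 0, 3, 6, 24 and 130. The median GC content was 58.1% for the lower genes, 42.0% for genes called higher by less than 2-fold and 46.5% for those at least 2-fold higher, against 49.5% for all tested genes. Both KO libraries showed the slope against the WT mean, from 0.08 to -0.13 in replicate 1 and from 0.21 to -0.19 in replicate 2 on the log2(CPM + 1) scale, while WT replicate 2 minus replicate 1 ran from -0.02 to 0.02. At 2 h the medians of KO minus WT ran from -0.02 to 0.02. A fit that removes each library's trend on GC content, chosen after seeing the data, called 209 genes higher (1.63%) and 24 lower (0.187%), with 112 at least 2-fold higher (0.875%) and 0 at least 2-fold lower. Of the original calls it kept 112 of the 122 genes at least 2-fold higher, 83 of the 217 higher by less, and 16 of the 163 lower. In the interferon lists it kept 124 of 131. Such a fit would also remove a real difference that follows GC content, and the cause of the slope was not tested. Differences under 2-fold are therefore given below with their value after this correction where the call of a named gene changes. Below, a value followed by its SE, or by neither a unit nor an SE, is a log2 fold change, KO 0 h minus WT 0 h. The counts of calls in each list stand against 2.65% higher and 1.27% lower calls over all tested genes.

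**Figure D2:**
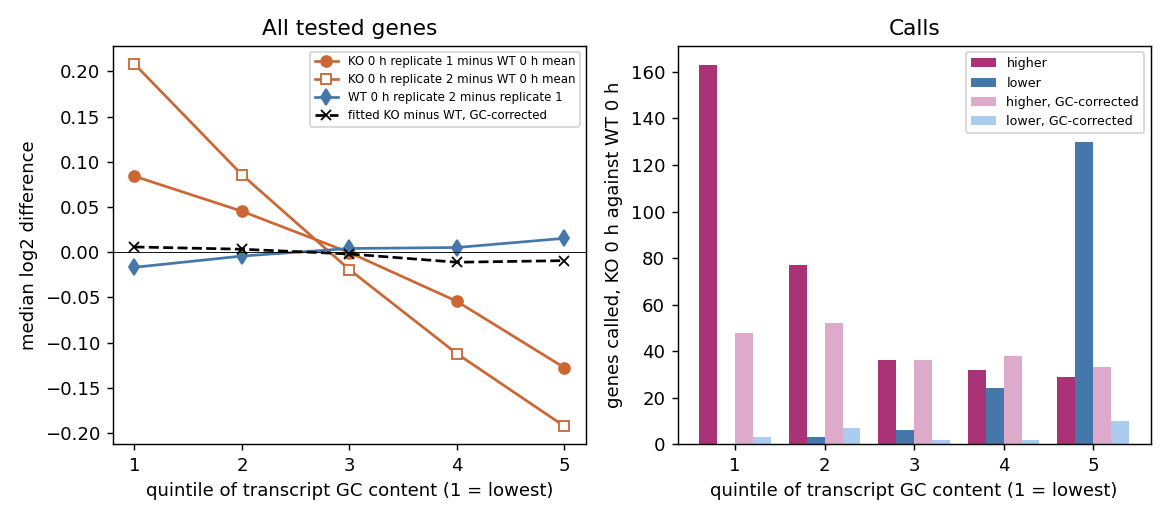
The left panel plots, for 5 groups of genes from low to high transcript GC content (x axis), the median log2 difference of each KO 0 h library from the WT 0 h mean, of the 2 WT 0 h libraries from each other, and of the fitted KO minus WT after GC correction. The right panel gives the number of genes called in each group before and after that correction; lower calls in the group with the highest GC content go from 130 to 10.

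Promoter sequences are shown for 6 genes whose transcripts were higher by large amounts, and 5 of them hold the core of the ISRE. They do not represent the genes called higher by less than 4-fold, whose shares are given below. The windows are the 250 bases before the annotated start from RefSeq, build GRCm38.p6, written 5′ to 3′ on the strand of the gene. Capitals mark each match to GAAANNGAA, where N is any base, or to its reverse complement, and overlapping matches run together. Ifit1, an antiviral protein that binds foreign RNA, lies on the + strand (chr19:34640639-34640888) with matches starting at positions -109, -103 and -84. Isg15, a ubiquitin-like protein, lies on the - strand (chr4:156200819-156201068) with matches at -78, -72 and -66. Irgm2, a GTPase of cell-autonomous immunity, is on the + strand (chr11:58214727-58214976) with 1 match at -64, and Stat2, a transcription factor of the pathway, on the + strand (chr10:128270248-128270497) with 1 at -221. Cxcl10, a chemokine for activated T cells, is on the - strand (chr5:92348890-92349139) with 1 match at -213. Xaf1, a protein linked to cell death, is on the + strand (chr11:72301379-72301628) and has 0 matches.
Ifit1: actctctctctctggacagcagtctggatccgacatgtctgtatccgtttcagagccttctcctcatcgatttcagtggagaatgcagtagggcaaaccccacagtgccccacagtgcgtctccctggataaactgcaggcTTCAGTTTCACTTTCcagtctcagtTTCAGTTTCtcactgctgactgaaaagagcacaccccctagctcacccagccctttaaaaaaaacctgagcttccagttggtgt
Isg15: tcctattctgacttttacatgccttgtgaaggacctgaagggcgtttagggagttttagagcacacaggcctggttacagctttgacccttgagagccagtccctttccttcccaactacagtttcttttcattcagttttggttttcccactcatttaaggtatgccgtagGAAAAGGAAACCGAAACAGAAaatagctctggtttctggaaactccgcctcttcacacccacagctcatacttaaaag
Irgm2: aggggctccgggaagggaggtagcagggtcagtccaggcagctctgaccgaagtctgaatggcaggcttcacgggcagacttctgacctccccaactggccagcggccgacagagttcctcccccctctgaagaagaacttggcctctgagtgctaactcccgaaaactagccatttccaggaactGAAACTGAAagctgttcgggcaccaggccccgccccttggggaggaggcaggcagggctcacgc
Stat2: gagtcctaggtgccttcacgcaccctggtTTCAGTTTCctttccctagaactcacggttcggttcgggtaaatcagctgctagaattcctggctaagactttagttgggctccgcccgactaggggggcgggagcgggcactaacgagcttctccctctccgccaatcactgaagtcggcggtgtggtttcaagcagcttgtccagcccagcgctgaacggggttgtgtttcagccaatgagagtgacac
Cxcl10: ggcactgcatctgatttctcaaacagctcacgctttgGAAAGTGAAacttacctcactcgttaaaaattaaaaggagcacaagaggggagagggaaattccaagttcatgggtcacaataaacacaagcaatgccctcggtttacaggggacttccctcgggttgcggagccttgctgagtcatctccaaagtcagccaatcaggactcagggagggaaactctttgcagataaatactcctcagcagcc
Xaf1: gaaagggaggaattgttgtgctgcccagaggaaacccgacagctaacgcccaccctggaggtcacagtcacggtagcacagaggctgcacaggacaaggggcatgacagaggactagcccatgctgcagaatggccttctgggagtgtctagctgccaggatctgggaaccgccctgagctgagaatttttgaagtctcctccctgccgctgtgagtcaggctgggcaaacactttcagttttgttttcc

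Among the tested genes, 10125 matched a RefSeq promoter by symbol, and 8.49% of them held GAAANNGAA on either strand in a window from 250 bases before to 50 after a start. The share was 18 of 22 genes (81.8%) for those called at least 16-fold higher, 22 of 38 (57.9%) for 4- to 16-fold, 12 of 31 (38.7%) for 2- to 4-fold and 22 of 177 (12.4%) for genes called higher by less than 2-fold. It was 7 of 124 (5.65%) for the genes called lower, and 8 of 73 (10.96%) for members of the interferon lists that were not called. Of the genes at least 2-fold higher outside the lists, Cxcl10 among them, 8 of 17 with a promoter held it. With AANNGAAAC, a core that overlaps the first in many elements, the shares were 86.4%, 57.9%, 32.3%, 10.7% and 3.23% in the order of the called groups, against 5.55% of all. The GAS core TTCNNNGAA was found in 5 of 22 genes at least 16-fold higher (22.7%), 5 of 38 (13.2%) at 4- to 16-fold and 8.34% of all. A match is a description of these letters in this window, and no match says nothing of the factor. Members of 1 family can share a promoter: the Ifit1 window above and that of 2010002M12Rik (Ifit1bl2 in RefSeq) overlap on opposite strands.

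Interferon genes themselves had few or 0 reads, and the receptors were not called. Of 5 tested genes of the list of ligands and receptors, 0 were called by edgeR or by DESeq2, and 1 (Ifnar2) had an unadjusted p below 0.05. Ifnb1, Ifng, Ifna2, Ifnl2 and Ifnl3 had 0 reads in each of the 4 libraries, Ifna4 had 1 and Ifna1 2 reads in KO 0 h replicate 2 alone, and the epithelial interferon Ifne had 4 reads in WT 0 h replicate 1 and 7 in KO 0 h replicate 2. The receptor chain Ifnar1 stood at 62.8 and 60.6 CPM in WT 0 h and 60.5 and 64.4 CPM in KO 0 h (log2 fold change 0.02 with SE 0.09, edgeR adjusted p = 0.941). Its partner Ifnar2 gave 0.24, SE 0.11, and the interferon-gamma receptor chains Ifngr1 and Ifngr2 gave 0.07, SE 0.10 and -0.10, SE 0.11. The groups overlap for Ifnar1, Ifngr1 and Ifngr2, and none of these differences passed (edgeR adjusted p = 0.941, 0.231, 0.737 and 0.648).

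Stat2 and Irf9, which bind the ISRE together, were higher in the libraries labelled KO 0 h, while most kinases were not called. Of 11 tested Jak kinases, Stats and Irf9, 5 were called higher and 0 lower, with a median log2 fold change of 0.05 against 0.01 over all genes tested. Stat2 stood at 14.7 and 14.6 CPM in WT 0 h and 216 and 230.2 CPM in KO 0 h (log2 fold change 3.93 with SE 0.10, edgeR adjusted p = 8.42e-19), and its promoter above holds a single ISRE core. Irf9, the DNA-binding subunit, stood at 8.50 and 6.58 against 69.4 and 66.5 CPM (log2 fold change 3.17 with SE 0.12, edgeR adjusted p = 2.14e-15). In these 2 genes both KO libraries lay at least 4 times above both WT libraries. Stat3, which relays cytokines of the interleukin-6 family, was called at 0.45, SE 0.08, with 112 and 104 against 143 and 153 CPM, but not without WT 0 h replicate 2 (0.37, edgeR adjusted p = 0.103). Jak2, a kinase of many cytokine receptors, was called at 0.35, SE 0.10 and lost the call in 12 of 17 alternatives, among them without KO 0 h replicate 2 (0.27) and after GC correction (0.24). Jak1, the kinase of the interferon receptor, stood at 306 and 317 against 336 and 309 CPM (0.05, SE 0.07, edgeR adjusted p = 0.745), and the groups overlap.

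Of 9 other interferon regulatory factors, 3 were higher and 0 lower (median log2 fold change 0.56). Irf1, a factor shared by both interferon types, stood at 21.5 and 22.6 CPM in WT 0 h and 116 and 112 CPM in KO 0 h (log2 fold change 2.37 with SE 0.11, edgeR adjusted p = 4.98e-14). Irf7, which drives interferon-alpha genes, stood at 1.07 and 1.33 against 8.83 and 12.03 CPM (log2 fold change 3.10 with SE 0.24, edgeR adjusted p = 1.64e-09). In both genes the KO libraries lay at least 4 times above the WT libraries. Irf2, which can oppose Irf1, rose by less (39.6 and 42.7 against 55.97 and 65.3 CPM, 0.56, SE 0.10), and its call was lost without WT 0 h replicate 1 (0.48, edgeR adjusted p = 0.0785). Irf3, which is activated by phosphorylation in infected cells, gave -0.11, SE 0.11 (edgeR adjusted p = 0.628).

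Among inhibitors of the pathway Usp18 differed by far more than the others. Of 17 tested, 3 were called higher and 1 lower, with a median log2 fold change of 0.06. Usp18, which removes Isg15 from proteins and blocks the receptor, stood at 0.440 and 0.344 CPM in WT 0 h and 50.3 and 50.5 CPM in KO 0 h (log2 fold change 6.98 with SE 0.19, edgeR adjusted p = 7.56e-18), with both KO libraries over 100 times the WT libraries. Socs1, which inhibits Jak kinases, stood at 6.20 and 9.83 against 12.5 and 13.7 CPM (0.71, SE 0.20), and the nearest WT and KO libraries were 9.83 and 12.5 CPM. Its call was lost in 8 of 17 alternatives, among them without WT 0 h replicate 1 (0.39), KO 0 h replicate 1 (0.73) and KO 0 h replicate 2 (0.63). The calls of Socs2 (0.51, SE 0.13) and of the SUMO ligase Pias4 (-0.42, SE 0.11) were lost after GC correction (0.43 and -0.21) and without KO 0 h replicate 2 (0.47 and -0.36). The phosphatases Ptpn1, Ptpn2 and Ptpn11 gave 0.04, SE 0.08, 0.21, SE 0.08 and 0.01, SE 0.08, and none passed (edgeR adjusted p = 0.809, 0.145 and 0.974).

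**Figure D3:**
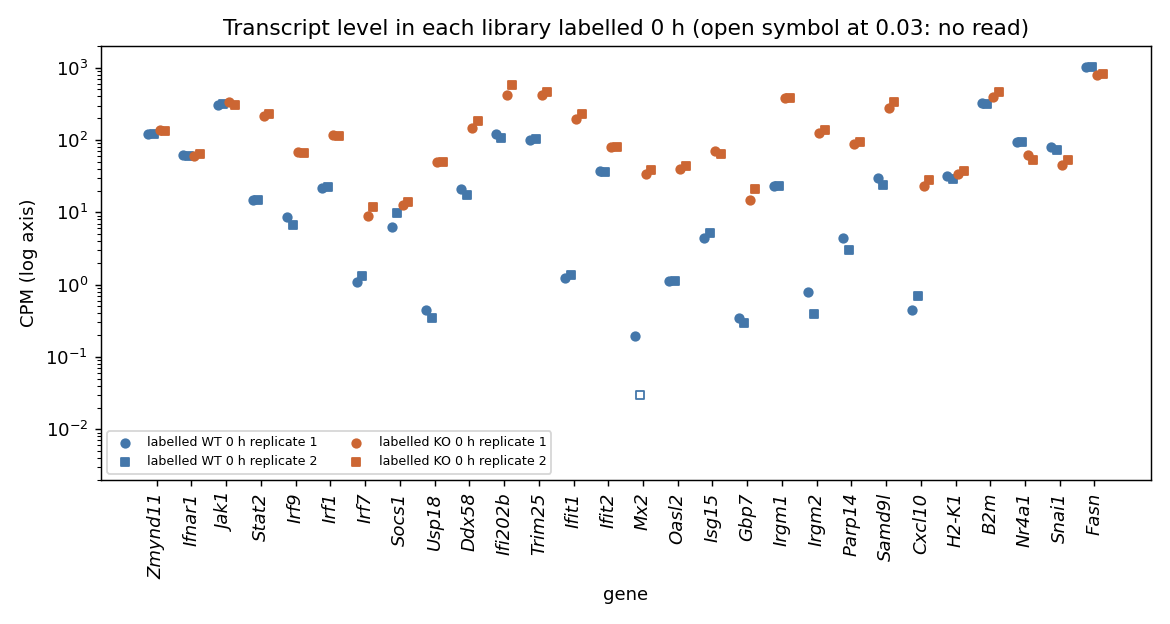
For 28 genes named in the text (x axis), each point is the CPM of 1 library on a log axis, with the WT 0 h libraries in blue and the KO 0 h libraries in orange, and an open symbol for no read. The receptor chain Ifnar1, the kinase Jak1 and the targeted gene Zmynd11 lie together, while Usp18, Ifit1, Mx2 and Irgm2 differ by more than 100 times between the labels.

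Several sensors of foreign RNA rose. Of 14 tested RNA sensors and adaptors 7 were higher and 1 lower, with a median log2 fold change of 1.34. Ddx58, which encodes the sensor RIG-I, stood at 20.9 and 17.2 CPM in WT 0 h and 148 and 182 CPM in KO 0 h (3.11, SE 0.11). Tlr3, the endosomal receptor of double-stranded RNA, stood at 9.38 and 10.7 against 39.7 and 57.8 CPM (log2 fold change 2.27 with SE 0.15, edgeR adjusted p = 1.09e-09). Eif2ak2 (PKR), which halts translation on binding double-stranded RNA, stood at 67.8 and 64.6 against 269 and 287 CPM (log2 fold change 2.07 with SE 0.09, edgeR adjusted p = 2.69e-14). For each of these sensors the lowest KO library exceeded the highest WT library. Zbp1, a sensor of Z-form nucleic acids, rose from 0.537 and 0.393 to 4.14 and 6.08 CPM (3.43, SE 0.43), and Dhx58 (LGP2) gave 1.52, SE 0.20. The adaptor Mavs (-0.33, SE 0.12, edgeR adjusted p = 0.108) and the kinase Tbk1 (0.16, SE 0.08, edgeR adjusted p = 0.272) did not pass. Ticam1, the adaptor of Tlr3, was called lower, at 18.9 and 17.3 against 12.1 and 12.9 CPM (log2 fold change -0.53 with SE 0.14, edgeR adjusted p = 0.0313), and the GC-corrected fit called 0 genes of the interferon lists lower.

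Most of the Ifi200 family, a cluster of DNA-binding proteins, rose. Of 16 tested DNA sensors, Ifi200 proteins and nucleases 12 were higher and 0 lower, with a median log2 fold change of 1.70. Ifi202b stood at 120.4 and 108 CPM in WT 0 h and 422 and 580.0 CPM in KO 0 h (log2 fold change 2.13 with SE 0.13, edgeR adjusted p = 9.15e-09), with replicate 2 the higher of the KO libraries. Ifi203 stood at 8.60 and 9.19 against 59.8 and 73.9 CPM (2.91, SE 0.12), Ifi204 at 55.6 and 51.7 against 178 and 197 CPM (1.80, SE 0.09) and Ifi205 at 5.72 and 6.58 against 21.4 and 27.00 CPM (1.97, SE 0.16). The groups do not overlap in any of these. Pyhin1 of the same family was low (0.342 and 0.491 against 1.16 and 2.21 CPM), and its call was lost in 10 of 16 alternatives, among them without KO 0 h replicate 2 (1.45) and after GC correction (1.78). Aim2, which forms an inflammasome on DNA, and Tmem173 (STING), the adaptor of DNA sensing, gave 0.22, SE 0.09 and 0.56, SE 0.22 and did not pass (edgeR adjusted p = 0.17 and 0.159).

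The Ifit genes, whose products bind viral RNA and block its translation, were all higher but by very different amounts. All 5 tested genes of this list were called, with a median log2 fold change of 5.79. Ifit1, with 3 ISRE cores, stood at 1.22 and 1.38 CPM in WT 0 h and 196 and 229 CPM in KO 0 h (log2 fold change 7.35, SE 0.19). I830012O16Rik stood at 0.195 and 0.0491 against 21.2 and 19.4 CPM (log2 fold change 7.30 with SE 0.30, edgeR adjusted p = 1.1e-14). Ifit2 rose least, with 36.7 and 35.6 CPM in WT 0 h and 79.2 and 79.1 CPM in KO 0 h (log2 fold change 1.13 with SE 0.09, edgeR adjusted p = 2.03e-09). 2010002M12Rik had 0 reads in WT 0 h and 0.331 and 0.334 CPM in KO 0 h, and its call was lost in 10 of 14 alternatives, among them each one that left out a library (edgeR adjusted p = 0.274, 0.24, 0.0507 and 0.0848). Members of this and the next families share sequence, so reads could be lost to multiple mapping or split among them, and their single values are uncertain.

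The oligoadenylate synthetases, which make the activator of an RNA-degrading nuclease, and the Mx proteins, dynamin-like GTPases that block viral nucleocapsids, rose from near 0. All 7 tested Oas and Oasl genes and all 3 tested genes of the 4 in the Mx, Rsad2 and Cmpk2 list (Cmpk2 was below the filter) were called higher, with median log2 fold changes of 4.19 and 5.91. Oasl2 stood at 1.12 and 1.13 CPM in WT 0 h and 39.1 and 43.9 CPM in KO 0 h (log2 fold change 5.19 with SE 0.20, edgeR adjusted p = 4.2e-15). Oas1b stood at 0.147 and 0.393 against 13.2 and 11.03 CPM (log2 fold change 5.46 with SE 0.31, edgeR adjusted p = 5.55e-12), and Oas2 at 0.391 and 0.147 against 3.92 and 6.22 CPM (4.19, SE 0.46). Oas1a, Oas1c and Oas3 rose least, by 2.09, SE 0.35, 2.55, SE 0.46 and 1.63, SE 0.33, to between 1.21 and 2.67 CPM in the KO libraries. Mx2 had 4 and 0 reads in WT 0 h and stood at 33.9 and 37.9 CPM in KO 0 h. Mx1 rose from 0.0489 and 0.0983 to 4.08 and 5.61 CPM. Rsad2 (viperin), which blocks viral replication through a modified nucleotide, reached 1.21 and 0.334 CPM from 0.0977 and 0.0983 CPM (2.95, SE 0.80), and its call was lost in 8 of 14 alternatives, among them without KO 0 h replicate 1 (edgeR adjusted p = 0.345), WT 0 h replicate 1 (0.259) and WT 0 h replicate 2 (0.231).

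The ubiquitin-like modifier Isg15 rose with its enzymes. Of 8 genes of Isg15 conjugation and removal 6 were higher and 0 lower, with a median log2 fold change of 1.89. Isg15 stood at 4.45 and 5.16 CPM in WT 0 h and 70.5 and 64.4 CPM in KO 0 h (log2 fold change 3.81, SE 0.12). The activating enzyme Uba7 stood at 0.489 and 0.786 against 6.24 and 6.35 CPM (log2 fold change 3.29 with SE 0.27, edgeR adjusted p = 7.47e-09), the conjugating enzyme Ube2l6 at 6.84 and 6.29 against 13.6 and 16.1 CPM (log2 fold change 1.17 with SE 0.15, edgeR adjusted p = 1.67e-05) and the ligase Herc6 at 5.37 and 4.91 against 14.8 and 18.5 CPM (log2 fold change 1.69 with SE 0.16, edgeR adjusted p = 1.13e-07). The activating, conjugating and ligating enzymes thus each passed, with groups that do not overlap. Herc4, a related ligase, gave 0.19, SE 0.09 (edgeR adjusted p = 0.206).

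The interferon-inducible GTPases rose from levels near 0 in most cases. Of 10 tested guanylate-binding proteins 9 were higher, with a median log2 fold change of 4.55, and so were all 9 tested immunity-related GTPases, with a median of 6.93, or 5.04 with genes at 0 reads in WT 0 h set at the lowest fold their reads allow. Irgm2 stood at 0.782 and 0.393 CPM in WT 0 h and 123 and 138 CPM in KO 0 h (log2 fold change 7.78, SE 0.16). Igtp, also known as Irgm3, stood at 0.733 and 0.442 against 68.8 and 76.7 CPM (log2 fold change 6.93 with SE 0.21, edgeR adjusted p = 8.82e-17), and Iigp1 at 0.147 and 0.295 against 32.4 and 45.8 CPM (log2 fold change 7.42 with SE 0.29, edgeR adjusted p = 6e-15). Irgm1 differed from these in having a level before the change, at 22.9 and 23.2 CPM against 376 and 384 CPM (log2 fold change 4.04 with SE 0.09, edgeR adjusted p = 3.09e-19). Tgtp2 and Gm4951 had 0 reads in both WT 0 h libraries and stood at 1.71 and 3.27 and 1.82 and 3.61 CPM in KO 0 h. Computed against 3 reads summed over the WT 0 h group, they were at least 32.9-fold and 35.8-fold higher. Gm4841, which lies beside Gm4951 and is in no list, was at least 41.1-fold higher by the same rule.

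Among the guanylate-binding proteins, which coat pathogen vacuoles, Gbp7 stood at 0.342 and 0.295 CPM in WT 0 h and 14.9 and 20.9 CPM in KO 0 h (log2 fold change 5.77 with SE 0.28, edgeR adjusted p = 1.98e-13). Gbp3 stood at 0.733 and 0.639 against 20.7 and 24.9 CPM (log2 fold change 5.04 with SE 0.25, edgeR adjusted p = 3.03e-13). Gbp6 stood at 0.244 and 0 against 4.14 and 4.08 CPM (4.99, SE 0.48). In these 3 genes the lowest KO library was more than 16 times the highest WT library. Gbp10 and Gbp11, with 2 and 1 reads over the WT group, stood at 3.75 and 4.08 and at 2.04 and 2.14 CPM in KO 0 h. Gbp8 was the single tested member without a call, at 0.147 and 0.246 against 0.607 and 0.401 CPM (edgeR adjusted p = 0.188).

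**Figure D4:**
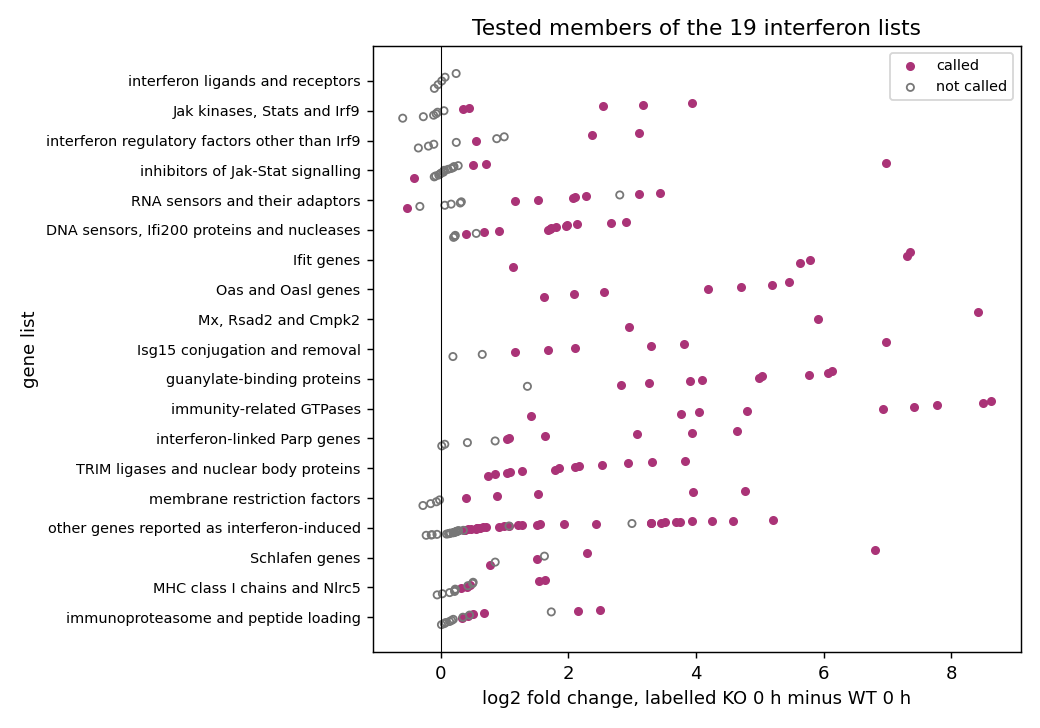
Each point is 1 tested gene of the 19 interferon lists (y axis), placed by its log2 fold change, KO 0 h minus WT 0 h (x axis); filled points were called and open points were not. Ligands and receptors lie around 0, the Ifit, Mx and GTPase lists reach beyond 5, and class I and immunoproteasome genes stay mostly under 1.

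Of 10 interferon-linked Parp genes, 6 were called higher and 0 lower (median log2 fold change 1.05). Parp14 and its neighbours Parp9 and Dtx3l, which act together in ADP-ribosylation and ubiquitination, were the largest. Parp14 stood at 4.35 and 2.998 CPM in WT 0 h and 88.4 and 95.1 CPM in KO 0 h (log2 fold change 4.64 with SE 0.14, edgeR adjusted p = 2.73e-17). Dtx3l stood at 8.55 and 8.30 against 125 and 135 CPM (log2 fold change 3.94 with SE 0.10, edgeR adjusted p = 2.39e-18) and Parp9 at 10.1 and 10.2 against 84.6 and 87.8 CPM (log2 fold change 3.08 with SE 0.11, edgeR adjusted p = 6.27e-16). The groups of all 3 lie at least 4 times apart. Zc3hav1 (ZAP), which binds CpG-rich viral RNA, gave 1.06, SE 0.09, while Parp1 of DNA repair gave 0.02, SE 0.08 (edgeR adjusted p = 0.93).

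All 13 tested TRIM ligases and nuclear body proteins were called higher, with a median log2 fold change of 1.86. Trim25, the ligase that activates RIG-I, stood at 101 and 105 CPM in WT 0 h and 421 and 465 CPM in KO 0 h (log2 fold change 2.10 with SE 0.08, edgeR adjusted p = 2.94e-15). Trim21, a receptor of antibody-coated virus, stood at 3.91 and 3.88 against 55.3 and 55.1 CPM (log2 fold change 3.82 with SE 0.12, edgeR adjusted p = 8.82e-17), and Trim30a at 23.8 and 21.9 against 115 and 149.6 CPM (log2 fold change 2.53 with SE 0.12, edgeR adjusted p = 3.86e-13). Of the nuclear body, Sp100 rose by 2.94, SE 0.18. Daxx, a chaperone that deposits histone H3.3 and is also counted below among the chromatin genes, stood at 24.7 and 25.2 against 91.1 and 89.2 CPM (log2 fold change 1.86 with SE 0.09, edgeR adjusted p = 1.14e-13).

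Membrane restriction factors were divided. Of 9 tested 5 were higher and 0 lower (median log2 fold change 0.40). Bst2 (tetherin), which holds budding virus on the cell, stood at 4.45 and 5.55 CPM in WT 0 h and 15.7 and 12.9 CPM in KO 0 h (log2 fold change 1.52 with SE 0.16, edgeR adjusted p = 4.27e-07), and Apol9a rose from 0.391 and 0.295 to 9.77 and 9.29 CPM (4.77, SE 0.33). Ifitm3, which blocks fusion in endosomes, stood at 149 and 135 against 195 and 180.2 CPM (log2 fold change 0.40 with SE 0.08, edgeR adjusted p = 0.00371), and lost its call without WT 0 h replicate 2 (0.30, edgeR adjusted p = 0.25). Ifitm2 (-0.16, SE 0.08) and Ly6e (-0.07, SE 0.08) did not pass (edgeR adjusted p = 0.269 and 0.674), and in Ly6e the groups overlap.

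Of 49 other genes reported as interferon-induced, 30 were higher and 0 lower, with a median log2 fold change of 0.60. Samd9l, a restriction factor of poxviruses, stood at 29.6 and 24.03 CPM in WT 0 h and 281 and 332 CPM in KO 0 h (log2 fold change 3.52 with SE 0.11, edgeR adjusted p = 4.2e-16). Helz2, a helicase, stood at 22.5 and 23.05 against 218 and 229 CPM (log2 fold change 3.29 with SE 0.10, edgeR adjusted p = 7.95e-17). Rtp4, a chaperone of membrane receptors, stood at 2.10 and 1.57 against 67.5 and 68.6 CPM (log2 fold change 5.21 with SE 0.15, edgeR adjusted p = 1.14e-17). These 3 genes kept the call in all 17 alternatives. Xaf1, whose promoter window shown above has no ISRE core, stood at 3.47 and 1.62 against 43.9 and 53.3 CPM (4.25, SE 0.20), and Ifi44 at 1.66 and 1.52 against 33.3 and 43.7 CPM (4.59, SE 0.20). Cd274 (PD-L1), the ligand that restrains T cells, rose from 1.03 and 1.33 to 15.6 and 16.2 CPM (3.75, SE 0.18). The leucine aminopeptidase Lap3 (0.12, SE 0.08) did not pass (edgeR adjusted p = 0.396). Of 6 tested Schlafen genes 4 were higher, led by Slfn8 at 0.0489 and 0.344 against 21.4 and 23.9 CPM (6.80, SE 0.31), and Slfn9 rose from 59.2 and 60.5 to 156 and 183 CPM (1.501, SE 0.09).

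Antigen presentation genes differed by less. Of 14 tested class I chains and Nlrc5, 5 were higher and 0 lower, and of 15 genes of the immunoproteasome and peptide loading, 6 and 0. The median log2 fold changes were 0.37 and 0.35, against 0.01 over all genes tested. H2-K1, a classical class I heavy chain, stood at 31.95 and 28.7 CPM in WT 0 h and 33.6 and 37.3 CPM in KO 0 h (0.22, SE 0.11, edgeR adjusted p = 0.25). H2-D1 was called at 0.32, SE 0.08 but not without KO 0 h replicate 2 (0.25) or without either WT library (0.29 and 0.30). B2m, the light chain, stood at 323 and 312 against 391 and 455 CPM (log2 fold change 0.41 with SE 0.08, edgeR adjusted p = 0.00265), and its call was lost without either WT library (0.41 and 0.36). Larger changes were seen in Nlrc5, the activator of class I genes (1.56 and 1.33 against 4.25 and 4.81 CPM, 1.64, SE 0.25), the peptide transporter Tap1 (16.5 and 13.1 against 62.7 and 68.8 CPM, 2.148, SE 0.11) and the immunoproteasome subunit Psmb9 (0.831 and 0.639 against 4.30 and 4.01 CPM, 2.49, SE 0.32). In these 3 the groups do not overlap, and the call held in every alternative that gave an adjusted p. Class I genes are near-identical in part, so reads can be lost or split among them. Of 14 standard proteasome genes 0 were higher and 1, Psmb2, lower (-0.28, SE 0.08, and -0.24 after GC correction without a call). Of 11 tested genes of the class II pathway 0 were called in the main edgeR fit or by DESeq2, with 3 higher at an unadjusted p below 0.05. Its members Ctss and Rfx5 were called higher in some other edgeR fits. Without a filter on low counts they gave 0.85 and 0.44 (edgeR adjusted p = 0.000647 and 0.0428). With GC correction alone neither was called (0.80 and 0.47).

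Of 13 tested chemokines 3 were higher and 0 lower (median log2 fold change 0.38). Cxcl10 stood at 0.440 and 0.688 CPM in WT 0 h and 23.02 and 27.7 CPM in KO 0 h (log2 fold change 5.47 with SE 0.31, edgeR adjusted p = 7.06e-12). The monocyte chemokines Ccl2 (98.1 and 91.9 against 175 and 172 CPM, 0.87, SE 0.09) and Ccl7 (38.5 and 34.7 against 79.97 and 91.4 CPM, 1.23, SE 0.11) lie side by side in the genome and rose by less. Cxcl1, which recruits neutrophils, gave 0.32, SE 0.12 (edgeR adjusted p = 0.122). Of 16 tested cytokines 3 were higher, among them the death ligand Tnfsf10 (TRAIL), which rose from 1.61 and 1.23 to 9.82 and 11.3 CPM (log2 fold change 2.89 with SE 0.28, edgeR adjusted p = 1.31e-07). Interleukin-6 was low, at 0.831 and 0.639 against 1.38 and 2.47 CPM, and its call was lost in 10 of 16 alternatives, among them without KO 0 h replicate 2 (0.89, edgeR adjusted p = 0.324). Of 21 caspases and death ligands 7 were higher, with Casp4, the sensor of cytosolic endotoxin, at 10.3 and 10.02 against 20.03 and 20.5 CPM (0.99, SE 0.13) and Mlkl, the pore of necroptosis, at 86.5 and 82.4 against 127 and 125 CPM (0.58, SE 0.08). Bax of the common apoptotic pathway gave -0.10, SE 0.09 and did not pass (edgeR adjusted p = 0.561). Of 23 tested NF-kB subunits, inhibitors and targets 0 were called by edgeR, with 8 higher and 1 lower at an unadjusted p below 0.05, Nfkb2 at -0.18, SE 0.07 and the target Vcam1 at 0.22, SE 0.08, and DESeq2 and the GC-corrected fit gave 0 and 1 higher calls there.

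Among 25 other lists, caspases and death ligands had 7 of 21 genes called higher, chemokines 3 of 13 and cytokines 3 of 16. The list of H3.3 and H3K36 genes had 4 of 30, against 2.65% of all tested genes. The remaining lists held fewer higher calls each. Of the 25 lists 10 had 0 calls by edgeR, among them 30 tested genes of DNA replication, 26 of mitosis and 15 of glycolysis. Of the 205 tested genes of these 10 lists, 32 were higher and 15 lower at an unadjusted p below 0.05. The share of all tested genes at that p was not computed. These counts, like those of single lists here and above, are therefore not a result about any list. Splicing factors held 13 of the 32, with 29 tested and 0 lower. Contractile and TGF-beta responsive genes had 6 lower and 0 higher of 22. The medians of the 25 lists ran from -0.16 to 0.46, the highest of which was that of the class II pathway. Mki67 and Top2a, made by dividing cells, gave 0.13, SE 0.07 and 0.21, SE 0.07, and Col1a1 and Fn1, the main matrix products of fibroblasts, -0.21, SE 0.08 and -0.15, SE 0.08, and none passed (edgeR adjusted p = 0.296, 0.102, 0.133 and 0.321). Of 52 cytosolic ribosomal proteins 2 were lower, Rplp0 (-0.30, SE 0.07) and Rplp1 (-0.39, SE 0.10), and both calls were lost after GC correction (-0.23 and -0.24). The same held for Fasn of fatty acid synthesis (-0.33, SE 0.08, and -0.17 after correction) and its regulator Srebf1 (-0.40, SE 0.10 and -0.22), the 2 lower calls among 28 genes of lipid synthesis. The share of lower calls over all tested genes was 1.27%.

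Of 30 genes of histone H3.3, its chaperones and the H3K36 machinery, to which Zmynd11 belongs, 4 were called higher and 0 lower. Daxx, given above, was the largest. The others were small: H3f3a, which encodes H3.3, stood at 47.6 and 43.6 CPM in WT 0 h and 58.9 and 69.8 CPM in KO 0 h (0.49, SE 0.11), and the reader Psip1 at 244 and 261 against 326 and 328 CPM (0.37, SE 0.08), while Atrx, the partner of Daxx, gave 0.29, SE 0.08. These 3 lost the call after GC correction (0.37, 0.24 and 0.11), and H3f3a and Atrx also without KO 0 h replicate 2 (0.36 and 0.22). H3f3b, the second gene of H3.3, gave 0.08, SE 0.08 (edgeR adjusted p = 0.576).

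The 163 lower genes were small in change, with a median log2 fold change of -0.41, and most were lost after GC correction. Nr4a1, an orphan nuclear receptor of the immediate early class, kept its call there. It stood at 93.7 and 92.6 CPM in WT 0 h and 61.4 and 52.9 CPM in KO 0 h (log2 fold change -0.70 with SE 0.09, edgeR adjusted p = 1.65e-05), and after correction at -0.56 (edgeR adjusted p = 7.79e-05). Snai1, a repressor of epithelial genes, stood at 79.8 and 72.3 against 45.1 and 52.7 CPM (log2 fold change -0.64 with SE 0.10, edgeR adjusted p = 0.00012, and -0.44 after correction, edgeR adjusted p = 0.0128). In both genes the KO libraries lay below both WT libraries, and Snai1 lost the call when GC correction was combined with leaving out KO 0 h replicate 1. Egr3, another immediate early gene, gave -0.63, SE 0.14 and -0.58 after correction with the call kept, but lost it without WT 0 h replicate 1 (-0.61) or replicate 2 (-0.69). Gas1, a membrane protein of growth arrest, fell from 255 and 237 to 180.4 and 179 CPM (-0.45, SE 0.08, and -0.28 after correction, edgeR adjusted p = 0.0364), and the TGF-beta antagonist Vasn from 232 and 217 to 174 and 155 CPM (-0.45, SE 0.08 and -0.29, edgeR adjusted p = 0.0397). Both were lost when GC correction was combined with leaving out KO 0 h replicate 2. Btbd6, the single gene called at least 2-fold lower, stood at 3.91 and 2.70 against 1.82 and 1.14 CPM (log2 fold change -1.14 with SE 0.31, edgeR adjusted p = 0.0414). It lost the call after GC correction (-0.99) and without KO 0 h replicate 2 (-0.87) or WT 0 h replicate 1 (-0.87). Of 28 tested immediate early genes 3 were lower (Nr4a1, Egr3 and Jund) and 1, Zfp36, higher. Of all tested genes 1.27% were called lower and 2.65% higher. Jund lost its call in 9 of 17 alternatives, among them GC correction (-0.06, edgeR adjusted p = 0.84), KO 0 h replicate 2 left out (-0.31) and either WT library left out (-0.43 and -0.35). Zfp36 lost it in 6, among them without KO 0 h replicate 2 (0.36) and without either WT library (0.54 and 0.49).

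The higher genes lay near one another in the genome. By gene order in RefSeq (GRCm38.p6, used for order alone since the counts are on mm9), 94 of 337 placed higher genes (27.9%) had another higher gene as the next tested gene on either side, against 4.89% of all placed genes. For lower genes the shares were 18 of 163 (11.04%) and 2.55%. There were 13 runs of at least 3 neighbouring higher genes, with 58 genes. The longest was the Ifi200 cluster on chromosome 1, with 8 genes whose log2 fold changes lay between 1.72 and 2.91. The largest clusters after it spanned wider ranges. The 6 genes of the Ifit cluster on chromosome 19 ran from 1.13 to 7.35, the 5 of the Oas cluster on chromosome 5 from 1.63 to 5.46, the 5 of a Gbp cluster on chromosome 5 from 2.82 to 6.13 and the 5 around Irgm1 on chromosome 11 from 1.41 to 8.501. A run of 3 on chromosome 3 (Smc4, Trim59 and Kpna4) held no gene of the interferon lists and lay between 0.27 and 0.40.

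The same contrast of labels at 2 h shares no library with that at 0 h. Of the 122 genes called at least 2-fold higher at 0 h, 106 were also called higher between KO 2 h and WT 2 h, where 1.59% of all tested genes were. Of the 217 higher by less than 2-fold, 58 were. The 163 lower genes had a median near 0 at 2 h (-0.000153), and the 1 gene called lower there (0.00781%) was not among them. The difference between the contrasts was tested as an interaction, which called 17 genes (0.133%), of which 15 were called at 0 h. Of these 15, the 10 with a negative interaction, a smaller KO excess at 2 h, were the immunity-related GTPases Irgm1, Irgm2, Igtp and Gm12185, the guanylate-binding proteins Gbp4, Gbp9 and Gbp11, and Usp18, Parp14 and Trim12c. Irgm1 had the smallest adjusted p of these, and its log2 fold change was 4.04, SE 0.09 at 0 h and 2.57, SE 0.08 at 2 h. In CPM Irgm1 stood at 75.7 and 71.8 under the WT 2 h label and 469 and 409 in KO 2 h. At 2 h the libraries of both labels were thus above their own 0 h levels. Oas3, Ifi204 and Ccl2 had a larger KO excess at 2 h, with Oas3 at 1.63, SE 0.33 at 0 h and 4.10, SE 0.27 at 2 h. Nr4a1 and Snai1, lower at 0 h, gave 0.05, SE 0.09 and 0.13, SE 0.10 at 2 h. The same test after GC correction called 11 genes.

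**Figure D5:**
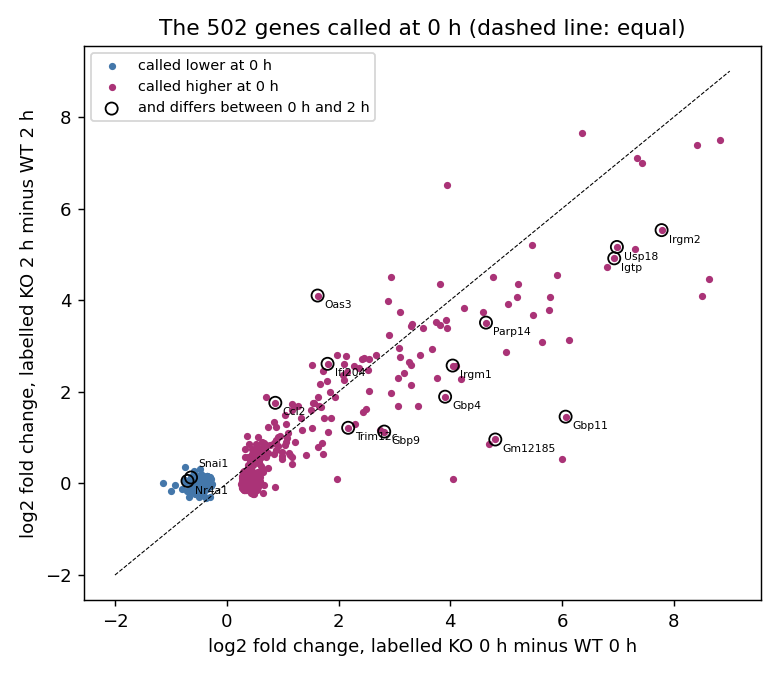
Each point is 1 of the 502 genes called between KO 0 h and WT 0 h, with its log2 fold change at 0 h on the x axis and at 2 h on the y axis; genes that differ between the contrasts by the interaction test are circled and named. Genes called lower at 0 h lie around 0 on the y axis, and Irgm1, Irgm2, Usp18 and several Gbp genes lie below the dashed line of equal change.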

How the data were processed

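RNA was sequenced in 8 NIH3T3 libraries, 2 per label and time. The authors deposited raw read counts per gene, made with bcl2fastq 2.15, STAR 2.5.2b and HTSeq on mm9, per the submitters' processing notes. The sources used here give neither annotation nor strand setting, so overlapping and antisense genes cannot be told apart. The 4 summary lines of each table were left out. They held 36.9 to 43.2% of all reads in the libraries labelled 0 h. The files spell 25 symbols as dates, and 1 of these was called.

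Counts were tested with edgeR 4.0.16 in R 4.3.3 (quasi-likelihood, TMM, filterByExpr with a minimum of 10 and a total of 15 reads, 1 coefficient per group over all 8 libraries, 4 residual degrees of freedom), with Benjamini-Hochberg adjustment and a threshold of 0.05. Of 23304 genes 12807 were tested, and the fit was tested on simulated data. SE is that of the log2 fold change. Alternatives were DESeq2 1.42.0, other scalings and filters, each library left out, a replicate block, a GC correction and glmTreat at a fold of 1.5. Members and lists were chosen with earlier results of these data known. Genes were named by rule: Zmynd11, the 15 largest called changes each way among genes with at least 1 CPM, the 10 largest CPM differences each way, and from each list up to 6 called and 4 uncalled genes. Outside that rule, Ticam1, Gm4841, Oas3 and other genes of the interaction test, and genes of runs along a chromosome, were named after their values were seen. The labels do not say whether replicate numbers pair the libraries, and the main fit did not pair them.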

Additional observations from a re-analysis of the deposited data

Results flagged for a closer look

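For 17 of the 12807 genes tested, the difference between the KO and WT labels was not the same at 2 h as at 0 h by edgeR's interaction test. In 10 of them the log2 fold change was smaller at 2 h, by the following amounts. Among guanylate-binding proteins the interaction was -4.61 for Gbp11, -2.01 for Gbp4 and -1.69 for Gbp9. Among immunity-related GTPases it was -3.85 for Gm12185, -2.25 for Irgm2, -2.02 for Igtp and -1.47 for Irgm1. It was -1.82 for Usp18, the protease that removes Isg15, -1.13 for Parp14 and -0.96 for the TRIM gene Trim12c.

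In 7 genes the interaction was positive. It was 2.48 for Oas3, 0.81 for Ifi204 and 0.89 for the chemokine Ccl2, which were higher under the KO label at both times. It was 0.76 for Nr4a1 and 0.77 for Snai1, which were lower at 0 h and had no call at 2 h. Agrn, a matrix proteoglycan, and Slc25a22, a mitochondrial carrier, had 0.58 and 0.72 and were not called at 0 h, though Agrn was after GC correction (0.34, edgeR adjusted p = 0.00231). The edgeR adjusted p of the interaction ran from 2.39e-07 for Irgm1 to 0.0416 for Slc25a22. Zmynd11 itself was lower in the 2 h libraries of both labels than in the 0 h libraries.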

How the results depend on the processing

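Against 502 calls (339 higher, 163 lower), 322 were made with a replicate block over 8 libraries (77 lower), 809 without a filter on low counts (385 lower), 110 against a fold of 1.5 (110 higher, 0 lower), and 174 to 1073 with 1 library left out (148 to 533 higher, 26 to 540 lower). Without KO 0 h replicate 2 there were 346, without replicate 1 1073, without WT 0 h replicate 1 174 and without replicate 2 191. With GC correction there were 233 (209 higher, 24 lower), with the block as well 205 (191 and 14), without KO 0 h replicate 2 as well 243 (223 and 20) and without replicate 1 279 with 36 lower. Scaling by library size alone gave 275 higher and 221 lower. At least 2-fold higher were 80 with DESeq2 and 107 to 212 with 1 library left out, against 122. At least 2-fold lower, against 1, were 2 with either other scaling, 5 without a filter, 4 with the block on 4 libraries, 2 to 4 with 1 library left out, and 0 on 4 libraries, against a fold of 1.5, and with GC correction alone, with the block or without KO 0 h replicate 1. Members of the interferon lists called lower, against 2, were 4 without a filter, 1 with the block, 0 to 2 with 1 library left out, and 0 against a fold of 1.5 and in each GC-corrected fit. Interaction calls, against 17, were 33 with DESeq2, 113 without a filter, 5 against a fold of 1.5, 11 with GC correction, 10 with the block as well, and 9 to 91 with 1 library left out. Genes read in KO 0 h replicate 2 alone fell from 1992 to 641 with at least 3 reads asked for. No called named gene of 145 changed sign in these alternatives, while 82 of 163 uncalled ones did in at least 1. Called genes have groups that do not overlap, so this contrast was largely set in advance. The cause of these changes was not tested.

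No pairing by replicate number was seen: deviations of same-numbered libraries correlated at -0.0533 to -0.0053 across genes. Whether same-numbered libraries share a batch was not tested. Of 86 named genes called at least 2-fold, 79 kept the call in every alternative of 17 that gave an adjusted p. Some of these genes, such as Mx1, Oas2, Gbp10 and Tgtp2, had only 16 such alternatives. Of the 308 named genes, DESeq2 left 250 the same, lost 4 calls and gained 4, and the rest had no DESeq2 result to compare. Depth limits genes near 1 read, which equals 0.0489 to 0.0668 CPM.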
